A study of Mus musculus with 23 samples.

Results

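Fgf5, Otx2, Pou3f1, Sall2 and Zic2, whose RNA marks the formative and primed states of pluripotency, were followed in the RNA-seq of Kdm2b fl/fl mouse ESCs. Oct4, which acts with them but is expressed in every pluripotent state, was followed too and is counted below as the last of the 6 markers. Rows of the 6 expression tables were taken where the gene name was that of a marker, and 6 of the 23363 gene names with a usable value were kept. Oct4 is written under its gene symbol Pou5f1 in the tables and was matched through the synonyms that RefSeq lists, while the other 5 matched by name. All 6 markers had 1 row, an accepted quantification in every sample and no other gene overlapping their locus. All 6 were also among the 12997 genes tested, which were those with at least 0.5 FPKM in at least 3 of the 6 samples. FPKM is the number of fragments assigned to a gene, corrected for transcript length and for the size of the library, so it can be compared between genes as a level per length.

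The comparison was made to see how expression in the ESCs differs once the DNA-binding part of KDM2B is lost. Every RNA-seq sample came from the Kdm2b fl/fl line. In this line loxP sites flank the Kdm2b exon for most of the ZF-CxxC domain on both alleles, and it also carries ERT2-Cre at the Rosa26 locus, a recombinase that works once tamoxifen is given. The groups compared were the 3 untreated replicates and the 3 replicates given tamoxifen over 72 hr. The dose is 800 nM in the sample labels but 800 µM in the design text. No sample with tamoxifen but without the floxed alleles or without Cre was among the RNA-seq samples, so tamoxifen, Cre activity and loss of the exon cannot be told apart in this comparison. The ESCs were kept on feeder fibroblasts in serum and LIF, and the methods describe removal of the feeders before experiments. Groups follow the sample labels. Read from the file names instead, all 6 samples would change group, and in that case all fold changes given here would have the opposite sign and the same size. Kdm2b itself had between 19.9 and 27.7 FPKM in the 6 samples, but this value covers the whole gene and does not resolve the floxed exon, so it does not check the labels.

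Pluripotent cells of the mouse pass from a naive state, as in the epiblast before implantation, through a formative state to a primed state, as in the epiblast shortly before gastrulation. Naive cells are known by factors such as Esrrb, Klf4 and Prdm14. During the passage these are switched off, and Fgf5, Otx2, Pou3f1, Sall2 and Zic2 are switched on. Oct4 is expressed throughout and is moved to new enhancers together with Otx2. ESCs grown in serum and LIF are a mixed population in which some cells express formative genes at a low level. In bulk RNA, fewer cells expressing a gene and less RNA of it per cell cannot be told apart.

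KDM2B binds CpG dinucleotides that carry no methylation through the ZF-CxxC domain, and for this reason the base composition around the gene starts is shown before the values. The sequences were read from the mm9 genome (NCBIM37 assembly). In the 1000 bases centred on the start of the gene as the tables give it, the markers fell into unlike groups. Pou3f1 held 144 CpG, Zic2 held 123 and Fgf5 held 79. Otx2 and Oct4 held 30 each and Sall2 held 20. The median was 63 CpG over the 11900 tested genes for which this sequence could be read. Pou3f1 and Zic2 therefore lay at percentiles 99.1 and 96.2 of these genes, whereas Otx2 and Oct4 lay at percentile 14.2 and Sall2 at percentile 8.79. With CpG-rich taken to mean a GC content of 55% or more and a CpG ratio, observed over expected, of 0.6 or more, the starts of Fgf5, Pou3f1 and Zic2 were CpG-rich, which makes 3 of 6 beside 62.5% of the 11900 genes. The start used matters for Otx2, because GENCODE places its outermost start 4772 bp further from the gene body. At the 7 annotated transcript starts of Otx2 the count was between 24 and 53 CpG, and none was CpG-rich. The Otx2 starts with 53 and 51 CpG came close, however. Their ratios were 0.747 and 0.705, and their GC contents of 53.3% and 54.0% were just under the 55% limit. None of 7 starts of Oct4, with 14 to 30 CpG, or of 3 starts of Sall2, with 16 to 50, was CpG-rich.

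The 200 bases just upstream of the start of 4 markers, read 5′ to 3′ on the strand of the gene, show this contrast. Zic2 and Oct4 are the highest expressed markers with opposite composition, Sall2 has the fewest CpG, and Otx2 has an octamer motif. Capitals mark each CpG and, in Otx2, also the octamer. Zic2 (chr14:122874406-122874605, plus strand) holds 25 CpG, Oct4 (chr17:35642777-35642976, plus strand) holds 6, Otx2 (chr14:49282548-49282747, minus strand) holds 4 and Sall2 (chr14:52948346-52948545, minus strand) holds 0.
Zic2: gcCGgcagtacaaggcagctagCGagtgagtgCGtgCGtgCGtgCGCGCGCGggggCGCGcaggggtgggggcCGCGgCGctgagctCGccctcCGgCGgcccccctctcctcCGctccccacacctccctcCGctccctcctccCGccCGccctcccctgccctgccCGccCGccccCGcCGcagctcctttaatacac
Oct4: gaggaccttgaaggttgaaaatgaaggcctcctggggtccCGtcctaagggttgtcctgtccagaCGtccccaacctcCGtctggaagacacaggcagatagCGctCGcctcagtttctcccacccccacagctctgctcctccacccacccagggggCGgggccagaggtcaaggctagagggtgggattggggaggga
Otx2: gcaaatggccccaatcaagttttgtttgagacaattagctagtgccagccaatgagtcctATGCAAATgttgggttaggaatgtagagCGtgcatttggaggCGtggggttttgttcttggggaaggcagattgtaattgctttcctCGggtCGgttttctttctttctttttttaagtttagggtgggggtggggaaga
Sall2: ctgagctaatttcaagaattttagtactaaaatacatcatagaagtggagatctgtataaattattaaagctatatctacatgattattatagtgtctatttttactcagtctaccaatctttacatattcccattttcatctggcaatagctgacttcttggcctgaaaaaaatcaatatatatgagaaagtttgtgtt
The octamer ATGCAAAT, the sequence that POU factors such as Oct4 and Pou3f1 are known to bind, was searched on both strands of the 1000-base windows. It was found once among the 6 markers, at position −140 from the start of Otx2, and in 3.18% of the 11900 windows. A match is a run of letters and not a measured binding site. Binding of KDM2B, RING1B or SUZ12 at these starts was not analysed here.

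**Figure D1:**
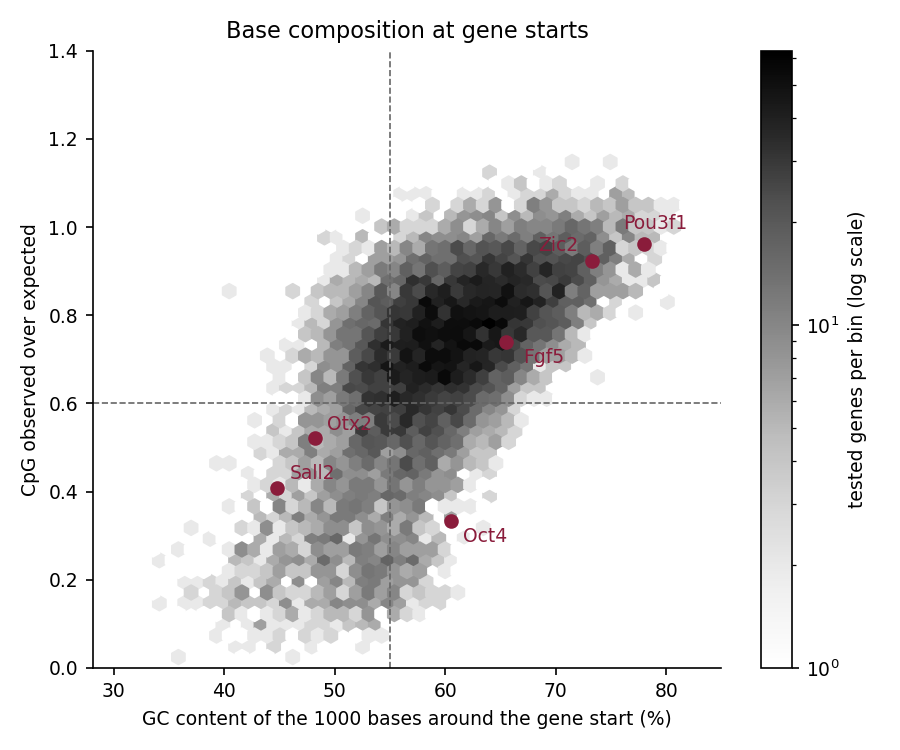
GC content in percent (horizontal axis) against the observed over expected CpG ratio (vertical axis) for the 1000 bases around each gene start, with grey bins for the 11900 tested genes, red points for the 6 markers and dashed lines at 55% and 0.6. Fgf5, Pou3f1 and Zic2 sit above and to the right of both dashed lines, while Oct4, at a GC content of 60.5%, has a ratio of only 0.333.

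In FPKM, Oct4 stood far above the other markers. Its mean in the untreated samples was 532 FPKM, followed by Zic2 at 19.5, Pou3f1 at 16.6, Otx2 at 12.8, Sall2 at 8.71 and Fgf5 at 2.79. Oct4 ranked 76 of the 12997 tested genes by mean FPKM over the 6 samples. Zic2 and Pou3f1 lay at percentiles 71.5 and 65.2 of the tested genes, Otx2 and Sall2 at 55.3 and 45.6, and Fgf5 at 25.2. The gaps above Zic2 and below Sall2 were wider than the spread, since Oct4 was 27.2 times as high as Zic2, Sall2 was 3.12 times as high as Fgf5, and neither pair overlapped between samples. Zic2 and Pou3f1, and Pou3f1 and Otx2, overlapped in the untreated samples and kept the order of their means in 2 of 3 of them. Otx2 and Sall2 overlapped in range as well, but Otx2 was above Sall2 in 3 of 3 untreated samples. The order of the means was the same in the tamoxifen samples. There, only Zic2 and Pou3f1 overlapped, with a ratio of means of 1.42.

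Fgf5 is a secreted fibroblast growth factor and the ligand among the markers, switched on in the epiblast after implantation. It lies on the plus strand of chromosome 5 between 98683203 and 98706052 (mm9). Its FPKM was 3.56, 2.13 and 2.68 in replicates 1, 2 and 3 of the untreated cells and 3.48, 3.14 and 3.46 in those of the tamoxifen-treated cells. The tamoxifen samples lay close together, and untreated replicate 1 was above all of them, so the groups overlapped. The means were 2.79 ± 0.722 (SD, n = 3) and 3.36 ± 0.189 (SD, n = 3) FPKM. The log2 fold change was 0.29 (limma adjusted p = 0.999, or 0.26 with the replicate number as a block). As the lowest expressed marker, Fgf5 also had the widest confidence intervals in the deposited tables, between 14.2% and 18.5% of its value to each side on average.

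Otx2 is a homeodomain factor that drives the exit from the naive state and later patterns the forebrain. Its locus is the minus strand of chromosome 14 between 49277859 and 49282547. The FPKM of Otx2 was 16.8, 8.89 and 12.6 in the untreated replicates and 9.72, 10.3 and 11.3 in the tamoxifen replicates. The 3 tamoxifen values all fell inside the range of the untreated values. The means were 12.8 ± 3.95 (SD, n = 3) and 10.4 ± 0.784 (SD, n = 3) FPKM, with a log2 fold change of −0.24 (limma adjusted p = 0.999, or 0.392 with the block). The log2 differences within replicate numbers 1, 2 and 3 were −0.78, 0.21 and −0.16. The negative sign of the fold change depends on number 1, where the difference was largest in size. Without that number, in a fit with the block, the log2 fold change was 0.03.

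Pou3f1, also called Oct6, is a POU factor of the primed epiblast and of early neural cells. It lies on the plus strand of chromosome 4 between 124334889 and 124337899. Its FPKM was 13.5, 14.5 and 21.8 in the untreated replicates and 12.7, 14.3 and 25.1 in the tamoxifen replicates. Both samples of replicate number 3 were high, and the tamoxifen samples spanned the untreated ones. The means were 16.6 ± 4.55 (SD, n = 3) and 17.4 ± 6.74 (SD, n = 3) FPKM. The log2 fold change was 0.03 (limma adjusted p = 1.0, or 0.853 with the block), and its sign changed with the scaling, being −0.05 after loci under 300 bp were left out and the rest scaled to TPM.

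Sall2 is a zinc finger factor of the spalt family that is expressed in the epiblast and in the nervous system. Its locus is the minus strand of chromosome 14 between 52930852 and 52948345. The FPKM of Sall2 was 8.72, 8.00 and 9.40 in the untreated replicates and 4.93, 6.68 and 8.75 in the tamoxifen replicates. Tamoxifen replicate 3 was above untreated replicates 1 and 2, so the groups overlapped, although each tamoxifen sample was below the untreated sample with its number. The means were 8.71 ± 0.702 (SD, n = 3) and 6.78 ± 1.92 (SD, n = 3) FPKM. The log2 fold change was −0.39 (limma adjusted p = 0.999, or 0.139 with the block). This was the largest in size among the markers on this scale, but with quantile normalization Fgf5, at 0.40, and Zic2, at 0.33, were larger in size than Sall2, at −0.32. Without tamoxifen replicate 1, Zic2, at 0.40, was larger in size than Sall2, at −0.18.

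Zic2 is a zinc finger factor that binds enhancers in ESCs and the epiblast and later acts in the forebrain. It lies on the plus strand of chromosome 14 between 122874606 and 122879550, 184 bp from the locus of 2610035F20Rik. Its FPKM was 22.4, 16.2 and 20.0 in the untreated replicates and 21.4, 20.5 and 32.0 in the tamoxifen replicates. Only tamoxifen replicate 3 was above every untreated sample. The means were 19.5 ± 3.16 (SD, n = 3) and 24.6 ± 6.43 (SD, n = 3) FPKM, with a log2 fold change of 0.32 (limma adjusted p = 0.999, or 0.184 with the block). Without replicate number 1, the fit with the block gave a log2 fold change of 0.51 and a limma adjusted p of 0.0143, which was past the threshold. In that fit 1755 of the 12997 tested genes were past it, 744 of them higher. Over all settings tried the adjusted p of Zic2 ran from 0.0143 to 1.0.

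Oct4, a POU factor that pluripotent cells need in the naive and the primed state alike, lies on the plus strand of chromosome 17 between 35642977 and 35647722. Its FPKM was 690, 369 and 537 in the untreated replicates and 832, 475 and 552 in the tamoxifen replicates. Replicate number 1 was highest and number 2 lowest in both groups, and each tamoxifen sample was above the untreated sample with its number. The groups overlapped, with means of 532 ± 161 (SD, n = 3) and 620 ± 188 (SD, n = 3) FPKM. The log2 fold change was 0.22 (limma adjusted p = 0.999, or 0.203 with the block). Its deposited confidence intervals were the narrowest of the markers, between 1.82% and 2.65% of the value to each side on average. The summed FPKM of all loci of 300 bp or more ranked the samples of each group as Oct4 did. It was 418303.9, 337252.0 and 364485.4 in the untreated and 462140.0, 356842.8 and 374371.7 in the tamoxifen replicates. With these loci alone scaled to TPM, the log2 fold change of Oct4 was 0.14. The part of these sums in the Oct4 values was not tested.

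**Figure D2:**
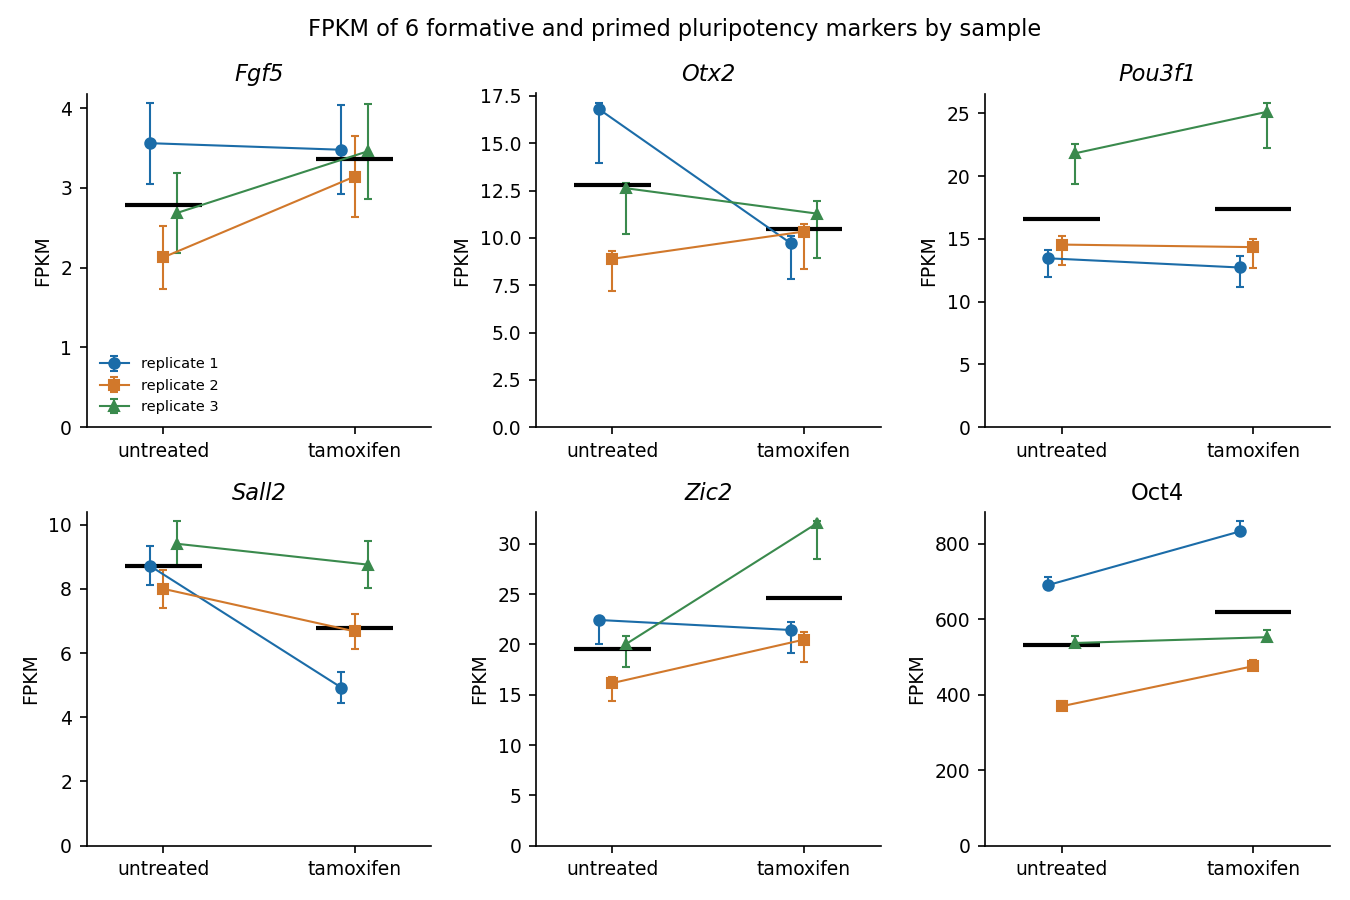
FPKM (vertical axis, from 0 and with its own range in each panel) of the 6 markers in untreated and tamoxifen samples (horizontal axis), with lines joining samples of the same replicate number, error bars for the deposited confidence interval of each value and black bars for group means. In Pou3f1 both samples of number 3 lie above the other 4, in Oct4 number 1 is highest and number 2 lowest in both groups, and in no panel do the tamoxifen samples all lie on one side of the untreated ones.

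In the fit without a block, 0 of 6 markers were past an adjusted p of 0.05 and 0 of 6 had an unadjusted p under 0.05 (limma). The background was as thin, since 0.0231% of the tested genes were higher and 0.00769% lower in the tamoxifen samples. Same-numbered samples shared their deviations from the group means, so the number was also used as a block. With the block 4.33% of the tested genes were higher and 6.06% lower, and again 0 of 6 markers passed. Sall2 alone of the 6 had an unadjusted limma p under 0.05, at 0.0354, as did 3873 of the 12997 tested genes. Its limma adjusted p of 0.139 was the lowest of the markers. With quantile normalization added to the block, Fgf5 had an unadjusted limma p of 0.0232 and Sall2 one of 0.0534. Which marker lay under 0.05 therefore depended on the scaling. All 3 tamoxifen samples were above all untreated samples in 3.09% of the tested genes and below them in 5.4%, but in none of the 6 markers.

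Within replicate numbers, Sall2 was lower in the tamoxifen sample in 3 of 3, with log2 differences of −0.81, −0.26 and −0.10 for numbers 1, 2 and 3. Oct4 was higher in 3 of 3, with 0.27, 0.36 and 0.04. Zic2 had −0.06, 0.34 and 0.68, and Fgf5 had −0.03, 0.54 and 0.35, so both were higher in numbers 2 and 3. Pou3f1 had −0.08, −0.02 and 0.20, and Otx2 had −0.78, 0.21 and −0.16. A difference of one sign in 3 of 3 numbers was common, as 24.8% of the tested genes were higher and 28.2% lower in all 3. The single marker in each direction is not beyond these shares.

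The confidence intervals give the size of change that these 6 samples leave possible. With the block, the 95% interval of the tamoxifen to untreated fold ran from 0.596 to 0.976 for Sall2, from 0.633 to 1.13 for Otx2 and from 0.865 to 1.21 for Pou3f1. It ran from 0.983 to 1.39 for Oct4, from 0.946 to 1.57 for Fgf5 and from 0.989 to 1.57 for Zic2. Only the interval of Sall2 left out 1. None of these intervals is adjusted for the number of genes tested, and the limma adjusted p of Sall2 was 0.139. With quantile normalization added to the block, the log2 interval of Sall2, from −0.64 to 0.006, contained 0. That of Fgf5, from 0.075 to 0.73, did not. Without the block the intervals were wider for every marker and all contained 1, with the widest for Oct4, from 0.661 to 2.07. All markers lay within the bulk of genes, whose central 95% of log2 fold changes ran from −0.89 to 0.77 with a median of −0.02. Between 22.2% of the tested genes, for Sall2, and 90.3%, for Pou3f1, had a larger log2 fold change in size.

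**Figure D3:**
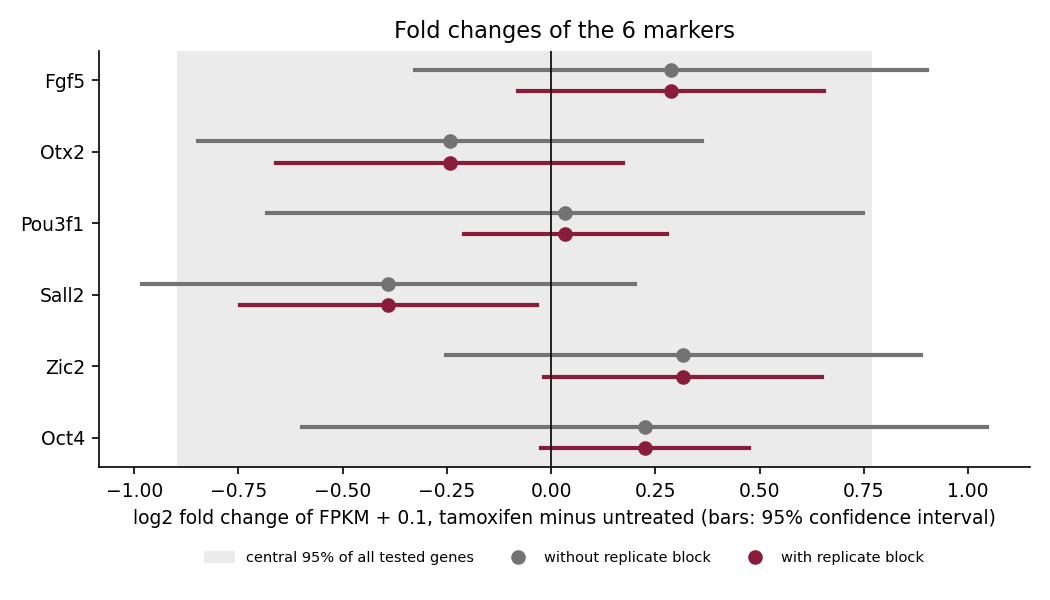
Log2 fold change of FPKM + 0.1, tamoxifen minus untreated (horizontal axis), for the 6 markers (vertical axis), with points for the estimate and bars for its 95% confidence interval without (grey) and with (red) the replicate number as a block. All points lie inside the shaded central 95% of the tested genes, and with the block only the bar of Sall2 leaves out 0.

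The markers differed in how their variation was divided. Of the variance of Pou3f1 on the log2 scale, 97.1% lay between replicate numbers and 0.211% between the groups. For Oct4 the shares were 87.7% and 9.03%. The median tested gene had 77.0% between numbers and 10.6% between groups. Fgf5, Zic2, Sall2 and Otx2 had less between numbers, at 46.8%, 44.1%, 37.7% and 35.0%. The group share was highest for Sall2, at 38.8%, and Otx2 had 48.2% in neither. Number 1 was high for Oct4 and low for Pou3f1, so the 2 POU factor genes did not rise and fall together over the samples.

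The profile of each marker over the 6 samples, taken as log2(FPKM + 0.1) minus its mean, was compared with those of 11851 tested genes. These had a mean of at least 1 FPKM and did not include the markers, which were compared in pairs. The measure was the root mean square difference over the samples, which is small for profiles that move alike. Among the markers, Fgf5 and Zic2 were the closest pair at 0.20, and Sall2 and Oct4 the farthest at 0.59. For every marker, the nearest of the 11851 genes was closer than any other marker. The nearest genes were Fgd1 (0.025) and Fbxo21 (0.051) for Fgf5, Pard6g (0.070) and Pim1 (0.076) for Otx2, and Phf6 (0.069) and Cul5 (0.078) for Pou3f1. For Sall2 they were AI314180 (0.040) and Dip2a (0.058), for Oct4 Mrpl16 (0.025) and Etfa (0.033), and for Zic2 Twist2 (0.081). These distances are descriptions over 6 samples that share their libraries.

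**Figure D4:**
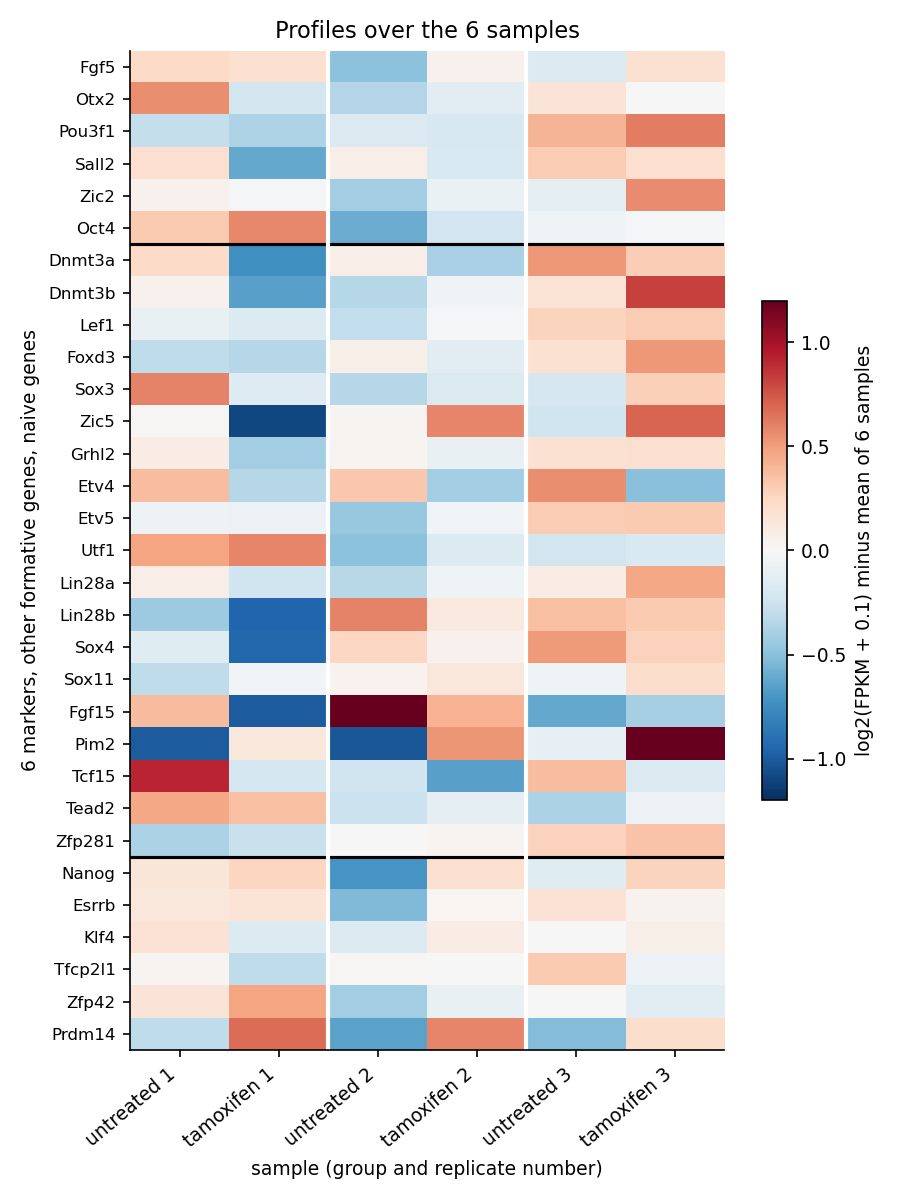
Colour gives log2(FPKM + 0.1) minus the mean over the 6 samples for each gene (vertical axis: the 6 markers, other formative genes and 6 naive genes, split by black lines) in each sample (horizontal axis, samples of a replicate number side by side). Oct4 is red in both samples of number 1 and blue in both of number 2, while Pou3f1 is red in both of number 3, and Pim2 and Prdm14 are redder in the tamoxifen sample of every number.

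Of 20 other genes that rise on the way to the formative state, all 20 were tested and 0 were past the threshold without the block. With it, 1 was higher and 2 were lower, beside 4.33% and 6.06% of all tested genes. The median log2 fold change of the 20 was 0.05. The 6 markers had a median of 0.13, with 4 of 6 above 0. Etv4, an ETS factor downstream of FGF signalling, had 38.5, 37.1 and 43.8 FPKM in the untreated replicates and 23.4, 22.4 and 20.9 in the tamoxifen replicates. The groups did not overlap, and Etv4 fell by 0.83 on the log2 scale with the block (limma adjusted p = 0.00621). Pim2, a serine/threonine kinase, had 15.2, 14.9 and 28.4 FPKM in the untreated and 33.4, 44.2 and 84.0 in the tamoxifen replicates. It too did not overlap between groups, and it rose by 1.42 on the log2 scale with the block (limma adjusted p = 0.00251). Tcf15, a bHLH factor linked to the priming of ESCs, fell by 0.69 with the block (limma adjusted p = 0.026).

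The other 17 formative genes were not past the threshold in either fit. The de novo DNA methyltransferase genes, which are raised with Fgf5 and Otx2 in the formative state, are examples. Dnmt3a had 26.9 ± 4.27 and 19.0 ± 7.16 FPKM (SD, n = 3) with a log2 fold change of −0.56, and its limma adjusted p with the block was 0.0505. Dnmt3b had 68.9 ± 12.3 and 78.9 ± 40.8 FPKM (SD, n = 3) with a log2 fold change of 0.09. Utf1, a chromatin-bound factor of pluripotent cells, had 238 ± 86.2 and 263 ± 86.3 FPKM (SD, n = 3) with a log2 fold change of 0.16. Among genes of the markers' own families, 16 were listed and 9 tested. Otx1, Crx, Pou3f2, Pou3f3, Pou3f4, Zic1 and Zic4 were below the filter, the highest single value being 0.713 FPKM for Pou3f4. Zic5 had a log2 fold change of 0.13 and was not past the threshold. Fgf8, a secreted factor of gastrulation, was the only family member past it, and only with the block, beside 4.33% of all tested genes higher. Its means were 1.27 and 2.70 FPKM, with a log2 fold change of 1.18 (limma adjusted p = 0.02).

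Genes of the naive state were listed for comparison. Of 15 naive genes 0 were past the threshold without the block. With it 5 were higher and 0 lower, beside 4.33% and 6.06% of all tested genes. The median log2 fold change of the list was 0.17. Prdm14, a repressor of FGF signalling and DNA methylation, had 2.93, 2.30 and 2.52 FPKM in the untreated replicates and 5.86, 5.52 and 4.25 in the tamoxifen replicates. These groups did not overlap, and Prdm14 rose by 0.98 on the log2 scale with the block (limma adjusted p = 0.0105). Dppa3, a factor that protects maternal methylation in the zygote, rose by 1.37 with the block (limma adjusted p = 0.0018), from 29.8 ± 14.0 to 79.8 ± 45.6 FPKM (SD, n = 3). Klf2, Nr0b1 and Tcl1 rose by 0.63, 0.83 and 0.66. Nanog, at 148 ± 42.2 and 201 ± 5.78 FPKM (SD, n = 3), was not past the threshold, with a log2 fold change of 0.48 and a limma adjusted p of 0.0792 with the block. Its groups did not overlap, and it was higher in 3 of 3 replicate numbers. Esrrb, Klf4, Tfcp2l1 and Zfp42 were not past the threshold either, with log2 fold changes of 0.15, 0.00, −0.24 and 0.17. The groups of Tfcp2l1 did not overlap, and it was lower in 3 of 3 replicate numbers.

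Among 15 genes of primitive streak and lineage priming 9 were tested, and with the block Cdh2, Eomes and Nodal fell by 0.89, 0.70 and 0.63 on the log2 scale while Lefty2 rose by 0.67. Their limma adjusted p values with the block were 0.00465, 0.0377, 0.0135 and 0.0204. Of 10 genes of pluripotent cells in general, Trim28 rose by 0.43 and Cdh1 fell by 0.66 with the block. Beside both lists, 4.33% of all tested genes were higher and 6.06% lower with the block. Sox2, the partner of Oct4, had 151 ± 34.7 and 185 ± 22.2 FPKM (SD, n = 3) with a log2 fold change of 0.32 and was not past the threshold. In the formative, naive, lineage, general and family lists together, 15 of 57 tested genes were past the threshold with the block and 0 without it. Of all 12997 tested genes, 1350 were past it with the block. Pim2 and Dppa3 were past it whichever replicate number was left out. Without number 2, Lefty2 was the only other one still past it (limma adjusted p = 0.0499), and without number 3, Lefty2, Eomes and Trim28 were not (limma adjusted p = 0.0515, 0.131 and 0.0811). With quantile normalization added to the block, Eomes, Klf2 and Trim28 were no longer past it (limma adjusted p = 0.0668, 0.0513 and 0.165).

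**Figure D5:**
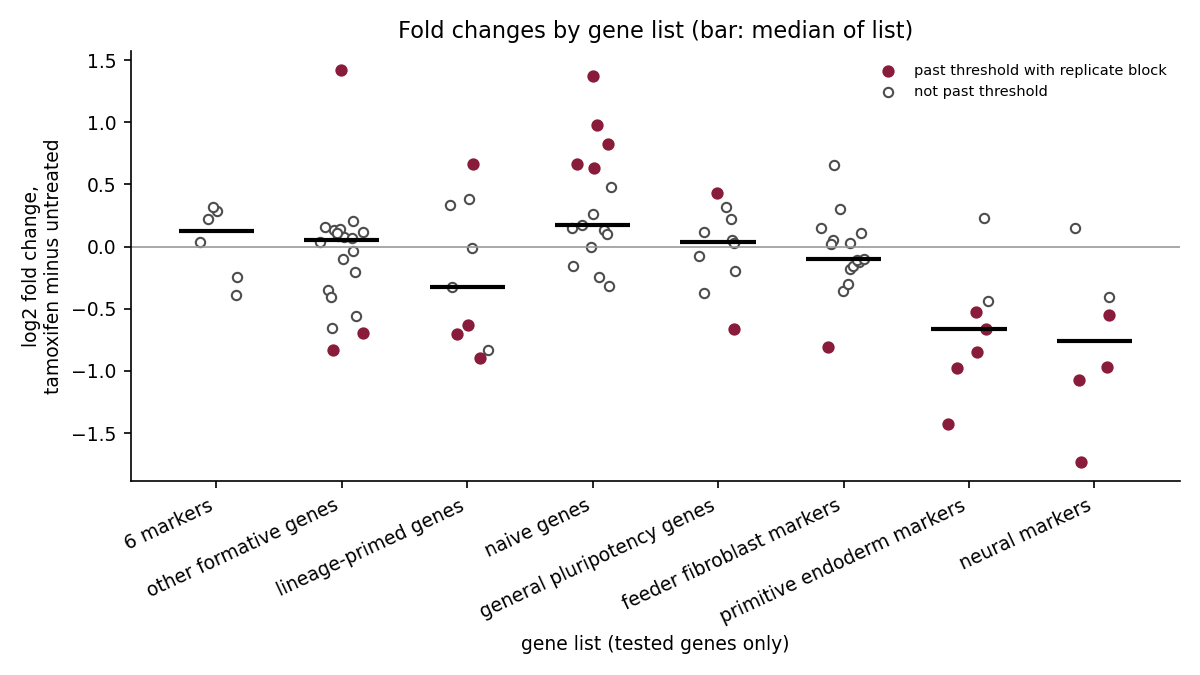
Log2 fold change, tamoxifen minus untreated (vertical axis), of the tested genes in each list (horizontal axis), with a point per gene, filled where the gene was past the threshold with the replicate block, and a bar at the median of the list. The 6 markers have no filled point and a median of 0.13, while the neural and primitive endoderm lists have medians of −0.76 and −0.66.

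Markers of other cells that such cultures can hold were measured beside the 6 genes. The FPKM of 16 feeder fibroblast markers summed to 196, 362 and 474 in the untreated replicates, against 277, 288 and 333 in the tamoxifen replicates, so the groups overlapped. Of these 15 were tested, and Thbs1 was the only one past the threshold, lower with the block, beside 6.06% of all tested genes. Col1a1 had 15.6, 40.3 and 31.2 FPKM in the untreated and 19.3, 38.2 and 29.7 in the tamoxifen replicates. It was lowest in number 1 of both groups, as were Dcn (2.19 and 1.88 FPKM there) and Thy1 (4.81 and 5.16). Not all of the list followed this, as Acta2 and Tagln were highest in number 1 among the tamoxifen samples, at 40.1 and 137 FPKM. Lum was listed at 0 in untreated replicate 1 and reached at most 0.202 FPKM. Twist2, nearest to Zic2 in profile, belongs to this list.

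Of 10 primitive endoderm markers 7 were tested, with a list median of −0.66. With the block 5 were lower, namely Gata4, Gata6, Lama1, Lamb1 and Col4a1, beside 6.06% of all tested genes. Dab2, of the same list, had 2.84 ± 0.740 and 3.42 ± 1.22 FPKM (SD, n = 3), was higher in 3 of 3 replicate numbers and was not past the threshold, with a log2 fold change of 0.23. The FPKM of all 10 markers summed to 68.2, 133 and 92.3 in the untreated and 40.2, 81.1 and 62.6 in the tamoxifen replicates, so the groups overlapped. Most of the sum came from Lamb1 and Col4a1, with 60.1 and 57.6 FPKM of the 133 in untreated replicate 2. Sox17 and Sox7, which define this lineage, were below the filter, with at most 0.441 FPKM. Of 8 neural markers 6 were tested, with a list median of −0.76. Nes, Olig2, Pax6 and Sox1 were lower with the block, beside 6.06% of all tested genes. Tubb3, a tubulin of neurons, was not past the threshold and was higher in 3 of 3 replicate numbers, with 53.8 ± 8.75 and 59.4 ± 7.54 FPKM (SD, n = 3) and a log2 fold change of 0.15. It was the highest of the list in each sample. The sums over all 8 neural markers were 115, 92.0 and 103 FPKM in the untreated and 89.2, 84.8 and 84.3 in the tamoxifen replicates, without overlap. Sall2, Otx2, Zic2 and Pou3f1 are also expressed in neural cells, and the part of these cells in the values of the markers was not tested. Without replicate number 2, Col4a1 alone of the called genes in the fibroblast, endoderm and neural lists was past the threshold (limma adjusted p = 0.0477 with the block).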

How the data were processed

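PolyA+ RNA of 6 samples was sequenced as directional paired-end libraries. Per the study's methods, reads were mapped by the authors to mm9 using TopHat2 0.5, and refGene models were quantified in biological triplicates using Cuffdiff 2.1.1. Whether same-numbered samples came from separate cultures is not given in the labels, so p-values measure the spread between these samples. For each sample the authors deposited FPKM values by gene row, together with their confidence intervals and a quantification status. Read totals are not in the tables, so depth is unknown and no interval that needs counts is given. The FPKM summed to between 549379.4 and 1045707.3 per sample, of which loci under 300 bp held 23.9% to 67.8% (23.86% to 67.75%), and 11571 to 11980 of 23874 rows reached 1 FPKM. The 17 ChIP-seq and input samples of the series were not analysed here.

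FPKM were summed by gene name, and 6 names were dropped because quantification had failed in some sample. Genes with at least 0.5 FPKM in at least 3 samples were tested by limma 3.58.1 under R 4.3.3 (lmFit, eBayes with a trend) after taking log2(FPKM + 0.1), with Benjamini-Hochberg adjustment over all 12997 genes and a threshold of 0.05. A fold change on this scale understates that of low genes. The same model was also fitted with a block for the replicate number. Deviations from the group means correlated across genes by 0.54, 0.61 and 0.51 between same-numbered samples, with the numbers taken from the labels. The numbers were therefore taken to pair the samples. Correlations between all others were less than 0. As the deviations sum to 0 within each group, such negative values accompany the positive ones and are no further evidence of pairing. The fits were tested on simulated data. Other steps used Python 3.11.15, pandas 2.3.3 and numpy 2.4.6. Base composition was read from NCBIM37 with GENCODE starts.

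The members and gene lists were chosen with earlier results of these data known. Named genes were the markers, those past the threshold in a list, a few naive, formative and general pluripotency genes set by name, and the 2 genes nearest to each marker in profile. Some genes that this rule names are not reported here. The alternatives, 22 in all, changed the pseudocount, the filter, the scaling, the handling of repeated and failed rows, the variance trend, the block and the samples kept.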

Additional observations from a re-analysis of the deposited data

How the results depend on the processing

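Of the 6 markers, Fgf5, Sall2 and Zic2 kept the sign of their log2 fold change in all 23 settings, with ranges of 0.11 to 0.47, −0.59 to −0.18 and 0.11 to 0.51. Otx2 turned to 0.027 with the replicate block and without replicate number 1. Pou3f1 turned to −0.054 under TPM scaling after loci under 300 bp were dropped, with or without the replicate block, and to −0.050 with the block and without replicate number 3. When single samples were left out, Pou3f1 ranged from −0.26 to 0.25, below 0 without untreated replicate 1 (−0.10), untreated replicate 2 (−0.044) or tamoxifen replicate 3 (−0.26). Oct4 ranged from −0.016 to 0.44, below 0 without untreated replicate 2 or tamoxifen replicate 1 (−0.0087). The replicate block itself called 0 of 6 markers, and 1, Zic2, without replicate number 1, where 1755 of the 12997 tested genes were called. It changed no other call of a marker.

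All genes past the threshold numbered 4 without the block (623 at an unadjusted limma p under 0.05), 2 with a pseudocount of 1, 0 with at least 1 FPKM in all 6 samples (410 at an unadjusted limma p under 0.05), and 2 to 10 when single samples were left out. With the replicate block they numbered 1350, 1144 with quantile normalization added and 1611 when loci under 300 bp were dropped and TPM scaling was added, and 1755, 79 and 837 without replicate numbers 1, 2 and 3. The split of higher and lower genes moved with the scaling, from 563 and 787 to 558 and 586 and to 421 and 1190 in the same order of scalings, and the median log2 fold change of all genes from −0.02 to 0.01 and −0.11. Listed genes past the threshold numbered 15 with the replicate block, 12 and 15 with these scalings, and 19, 3 and 16 without replicate numbers 1, 2 and 3. The cause of these shifts was not tested.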
